A study of Mus musculus with 32 samples.

Results

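The visual cycle genes of the retinal pigment epithelium (RPE) were followed in eyes that did or did not receive Nrf2. The members were chosen by symbol, with earlier results of these data known, as enzymes and retinoid carriers of this pathway known in the RPE. They were Rpe65, Lrat, Rdh5, Rgr, Rlbp1, Rdh10, Rdh11, Stra6 and Dhrs3, which are 9 of the 34453 genes in the count table, and all 9 had counts high enough to be tested in every comparison. Polyadenylated RNA was measured by sequencing in 32 eyes of rd1 mice, a retinitis pigmentosa model in which loss of Pde6b function kills the rods. In each mouse, 1 eye received AAV Best1 Nrf2, which expresses human NRF2 from the RPE-directed human Best1 promoter, together with AAV Best1 GFP. The other eye received AAV Best1 GFP only, so that every eye carried the GFP vector. Nrf2 eyes thus received an additional vector, in another capsid by the methods. Vector load and Nrf2 cannot be told apart in these comparisons. There were 7 mice at P20 and 9 at P40 by the labels. Each gave 1 Nrf2 eye and 1 control eye, matched here by age and replicate number. The paired design addressed what Nrf2 does to the RPE transcriptome while the photoreceptors degenerate. The methods describe the rd1 animals as FVB/N and also describe a wild-type group at P40. The strain is taken here from the labels, which call all 32 samples rd1. The methods give fewer rd1 pairs at either age than the labels do, and the rd1 and CD1 wild-type pairs they give at P40 add up to the 9 pairs labelled rd1, so most of the P40 mice may be wild type, and this was not tested. For the P40 values, and for P40 against P20, strain and age then cannot be told apart.

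In the visual cycle, light turns the 11-cis retinal of photoreceptor opsins into the all-trans form, which travels to the RPE as retinol and is made back into 11-cis retinal there. Retinol enters from the blood through the receptor STRA6, LRAT joins it to a fatty acid, RPE65 converts the resulting retinyl ester to 11-cis retinol, and RDH5, RDH10 and RDH11 oxidize the alcohol to the aldehyde. CRALBP, the product of Rlbp1, carries 11-cis retinoids, RGR is an opsin-like protein that binds all-trans retinal, and DHRS3 reduces all-trans retinal to retinol. Nrf2 is a transcription factor of the antioxidant response.

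Rpe65, Lrat, Rgr and Rlbp1 were the members whose lower level in Nrf2 eyes at P40 passed the test in 19 of 19 alternative analyses, so the 250 bases upstream of their RefSeq start sites are shown (GRCm38.p6, gene strand, 5′ to 3′). The windows are chr3:159598931-159599180 on the plus strand for Rpe65, chr3:82903975-82904224 on the minus strand for Lrat, chr14:37049015-37049264 on the minus strand for Rgr and chr7:79387028-79387277 on the minus strand for Rlbp1. GENCODE vM21 places these protein-coding genes at chr3:159599175-159625321, chr3:82892579-82903973, chr14:37034909-37048964 and chr7:79374870-79387048. Capitals mark the matches on either strand to TAATCC, the core letters bound by OTX factors, and to CATGTG and CACGTG, which are E-box sequences bound by MITF and related factors.
Rpe65: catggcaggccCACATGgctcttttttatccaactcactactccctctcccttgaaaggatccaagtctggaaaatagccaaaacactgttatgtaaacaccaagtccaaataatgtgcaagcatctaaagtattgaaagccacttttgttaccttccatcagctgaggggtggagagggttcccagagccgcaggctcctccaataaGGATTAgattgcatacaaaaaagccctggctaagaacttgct
Lrat: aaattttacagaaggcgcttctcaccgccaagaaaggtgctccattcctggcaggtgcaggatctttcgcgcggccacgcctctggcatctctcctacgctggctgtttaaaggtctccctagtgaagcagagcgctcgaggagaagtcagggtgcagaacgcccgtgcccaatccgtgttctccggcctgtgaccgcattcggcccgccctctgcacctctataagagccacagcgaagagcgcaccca
Rgr: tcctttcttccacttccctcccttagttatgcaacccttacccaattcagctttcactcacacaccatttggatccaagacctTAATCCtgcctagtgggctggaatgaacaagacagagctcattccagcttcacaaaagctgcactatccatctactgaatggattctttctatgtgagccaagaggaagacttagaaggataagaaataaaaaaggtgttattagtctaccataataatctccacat
Rlbp1: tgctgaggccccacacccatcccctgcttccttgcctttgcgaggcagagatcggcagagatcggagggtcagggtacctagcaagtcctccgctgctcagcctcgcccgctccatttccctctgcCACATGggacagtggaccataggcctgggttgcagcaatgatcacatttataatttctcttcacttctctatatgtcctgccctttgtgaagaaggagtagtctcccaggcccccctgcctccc
TAATCC was found in the windows of Rpe65 and Rgr, where it began 42 and 167 bases upstream, against 6.25% of 32851 mouse promoter windows of the same length. CATGTG was found in those of Rpe65 and Rlbp1, 239 and 124 bases upstream, against 12.3% of all windows. The window of Lrat had none of these letters. Over the 14 windows RefSeq gives for 8 members (none was matched for Rdh10), CACGTG occurred in 1 window of Rdh11 and in 6.02% of all windows. The antioxidant response element bound by Nrf2, searched as TGACNNNGC, occurred in 0 of the 14 windows and in 10.2% of all windows. A match describes letters only, and no match says only that these letters are not in these windows.

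The transgene was read from the row for human NFE2L2. In Nrf2 eyes it ranged from 1082 to 9506 CPM (counts per 1e6 counts) at P20 and from 3205 to 10438 CPM at P40. In control eyes its range was 0.924 to 1098 CPM at P20 and 0 to 99.2 CPM at P40, where the 1 library with no count allows up to 0.0850 CPM. The highest control value belonged to P20 mouse 3, and the lowest Nrf2 value to P20 mouse 4. These 2 libraries, 1 labelled control and 1 labelled Nrf2, differed by 8.08 times the sampling noise of their counts, the smallest of 496 library pairs, and the next pair differed by 45.8 times. The level of the mouse 3 eye goes against its control label. That of the mouse 4 eye is low for its Nrf2 label, though above the 66.3 CPM of the control eye of the same mouse. The cause was not tested. The fits of the 9 members that use P20 eyes were also run without mice 3 and 4. The P20 values of the marker genes and of the other retinoid genes were not checked in this way. The transgene was higher in the Nrf2 eye of 7 of 7 mice at P20 (adjusted P = 0.0601, edgeR) and of 9 of 9 at P40 (adjusted P = 0.000672). Depth ran from 16548332 to 50542797 counts per library.

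The libraries held RPE RNA by most RPE markers, and RNA of other cells as well. Slc16a8, the lactate transporter MCT3 of the RPE, had 1498 ± 627 CPM (SD, n = 7) in control eyes at P20 and 1818 ± 793 (n = 9) at P40. Best1, whose promoter drives the vectors, was low in every group, from 0.274 to 4.18 CPM over the 32 eyes. Rlbp1, Rgr and Rdh10 are also known in Müller glia and Rdh11 in photoreceptors, and in bulk RNA fewer cells of a type cannot be told apart from less RNA per cell.

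Per kilobase of the longest transcript, the most abundant members in control eyes at P40 were Rdh5 (2531 ± 954 CPM per kb, SD, n = 9) and Rgr (2141 ± 891). Rlbp1 (1155 ± 460) and Rpe65 (1133 ± 472) followed. Rdh10, Stra6 and Lrat were intermediate, at 392 ± 215, 241 ± 197 and 121 ± 75.2 CPM per kb. Dhrs3 and Rdh11 were lowest, at 43.3 ± 5.95 and 30.3 ± 15.5. The ranges over eyes of all neighbours in this order overlapped, and it depended on the length used. With the total exon length of each gene, Rgr came first (2105 CPM per kb), followed by Rdh5 (1197), Rpe65 (1091) and Rlbp1 (838), so Rpe65 moved from place 4 to place 3. Together the 9 members took a median of 1.45% of a library's counts in control eyes and 0.933% in Nrf2 eyes at P20, and 1.90% and 0.794% at P40.

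**Figure D1:**
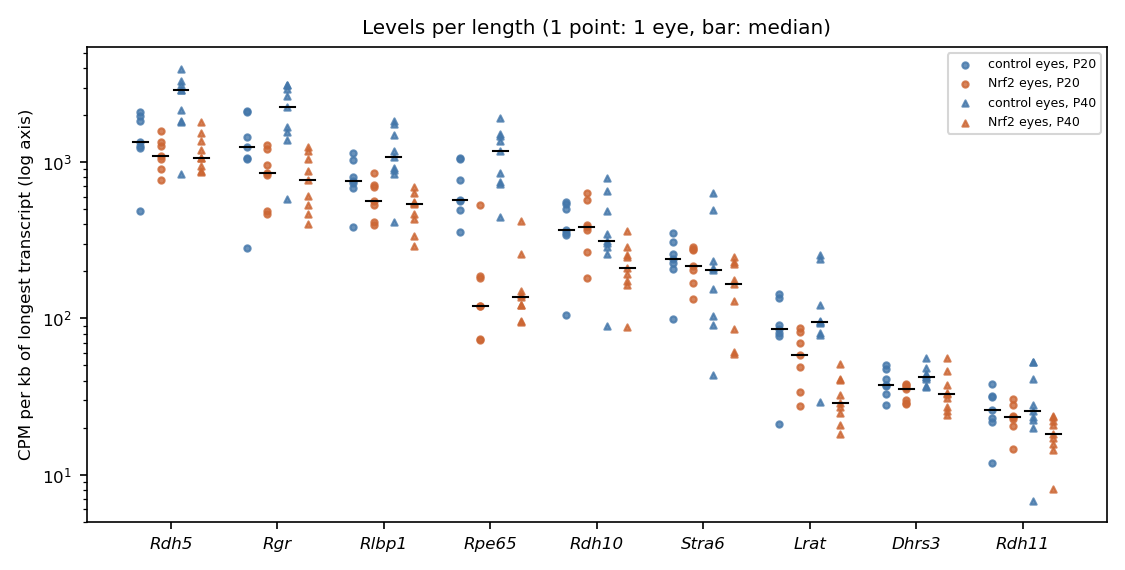
Level of each member per kilobase of its longest transcript (CPM per kb, log axis) in each eye, with circles for P20, triangles for P40, blue for control eyes, orange for Nrf2 eyes and bars at group medians. Rdh5 and Rgr lie at the top on this length and Dhrs3 and Rdh11 at the bottom in control eyes, and the orange points of Rpe65 sit below most of the blue ones.

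Of the members, Rpe65, the retinoid isomerase, was the 1 that changed at P20. In control eyes it ranged from 664 through a median of 1065 to 1979 CPM, and in Nrf2 eyes from 135 through 225 to 992 CPM. Its level was lower in the Nrf2 eye of 7 of 7 mice, and the groups overlapped only through the Nrf2 eye of mouse 4, at 992 CPM, whose transgene level was the lowest of the Nrf2 eyes. The fitted change was -2.17 ± 0.37 on the log2 scale (SE, n = 7 pairs, adjusted P = 0.0198, edgeR), or 4.51 times lower, and single pairs ran from -3.85 to -0.98. Without mice 3 and 4 the change was -2.59 (adjusted P = 0.0169). The call at P20 depended on which mice were kept. It held without mouse 4 or mouse 7, and the adjusted P became 0.0652, 0.0512, 0.0513, 0.0582 and 0.0580 without mouse 1, 2, 3, 5 or 6 in turn, with log2 changes between -2.28 and -2.02. Of all 16303 genes tested at P20, 0.485% were called lower and 3.41% were called in either direction.

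The other 8 members did not pass the test at P20. Lrat, which stores retinol as an ester, had 483 ± 215 CPM (SD, n = 7) in control eyes and 311 ± 123 CPM in Nrf2 eyes, with a log2 change of -0.59 ± 0.40 (SE, adjusted P = 0.463). The light-dependent opsin gene Rgr changed by -0.53 ± 0.45 (adjusted P = 0.569) and the carrier gene Rlbp1 by -0.42 ± 0.25 (adjusted P = 0.409). Both groups of eyes overlapped broadly for each of these genes. Among the dehydrogenases, Rdh5 changed by -0.30, Rdh11 by -0.16 and Rdh10 by 0.03, with adjusted P values of 0.628, 0.756 and 0.979. The receptor gene Stra6 changed by -0.12 (adjusted P = 0.872) and Dhrs3 by -0.24 ± 0.10 (adjusted P = 0.246). The direction of Rdh10, Rdh5, Rdh11 and Stra6 at P20 turned under at least 1 alternative. In mice 2, 4 and 7, all 9 members were lower in the Nrf2 eye, and 8 were in mouse 6, while in mice 1, 3 and 5 only 3, 2 and 1 were. The control eye of mouse 5 was the lowest of the 7 control eyes for 8 of the 9 members, the exception being Dhrs3.

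**Figure D2:**
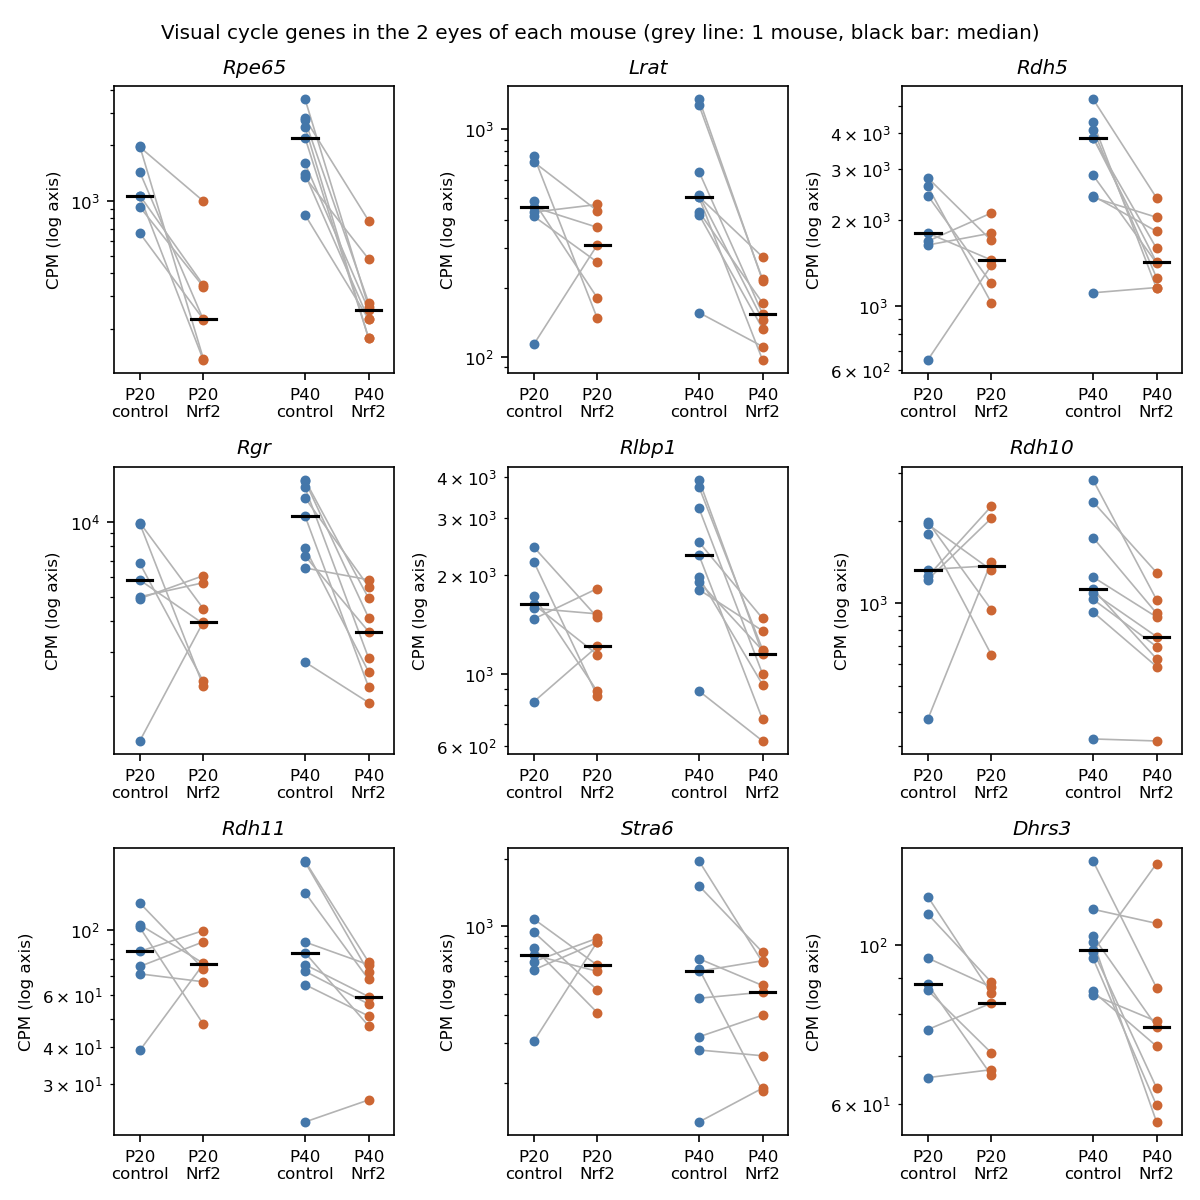
CPM (log axis) of the 9 members in the control eye (blue) and Nrf2 eye (orange) of each mouse at P20 (7 mice) and P40 (9 mice), joined by a grey line for each mouse, with black bars at the medians. Every line of Rpe65 falls at both ages, those of Lrat, Rgr, Rlbp1 and Rdh10 all fall at P40, and the lines of Stra6 run both ways.

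At P40, 6 of the 9 members were lower in Nrf2 eyes: Rpe65, Lrat, Rdh5, Rgr, Rlbp1 and Rdh10. No member was called higher. Of all 16686 genes tested, 1.23% were called lower and 4.57% in either direction. The median log2 change of the 9 members was -1.06, against -0.03 over all genes tested.

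Rpe65 fell most. Control eyes ranged from 835 through 2201 to 3574 CPM and Nrf2 eyes from 177 through 254 to 777 CPM. The 2 groups of eyes did not overlap. The log2 change was -2.82 ± 0.32 (SE, n = 9 pairs, adjusted P = 0.000281), or 7.08 times lower, and the pairs ran from -3.83 to -1.48. Rpe65 was the member with the largest fall in 8 of 9 mice at P40 and in 6 of 7 at P20.

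Lrat, the enzyme one step before RPE65, came next. Control eyes ranged from 157 through 506 to 1358 CPM and Nrf2 eyes from 97.1 through 155 to 275 CPM. All Nrf2 eyes lay below every control eye but that of mouse 8, the lowest. The log2 change was -1.80 ± 0.25 (adjusted P = 0.00122), 3.49 times lower, with lower values in the Nrf2 eye of 9 of 9 mice.

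The opsin-like gene Rgr and the carrier gene Rlbp1 fell together. Rgr ranged from 2745 through 10577 to 14733 CPM in control eyes and from 1889 through 3639 to 5869 CPM in Nrf2 eyes, a log2 change of -1.43 ± 0.29 (adjusted P = 0.0131). Rlbp1 ranged from 884 through 2305 to 3920 CPM in control eyes and from 622 through 1151 to 1476 CPM in Nrf2 eyes, a log2 change of -1.18 ± 0.22 (adjusted P = 0.00886). Each was lower in the Nrf2 eye of 9 of 9 mice, and for each the control eye of mouse 8 was the only one inside the range of the Nrf2 eyes. Of all genes tested, 1.08% were lower in the Nrf2 eye of every mouse at P40, and 2.58% were at P20.

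The retinol dehydrogenases had smaller fitted changes. Rdh5, the main 11-cis retinol dehydrogenase of the RPE, had 3363 ± 1268 CPM (SD, n = 9) in control eyes and 1582 ± 423 CPM in Nrf2 eyes. The log2 change reached -1.06 ± 0.26 (SE, adjusted P = 0.0356), with lower values in the Nrf2 eye of 8 of 9 mice. Rdh10 had 1406 ± 769 CPM in control eyes and 790 ± 284 CPM in Nrf2 eyes, with a log2 change of -0.75 ± 0.18 (adjusted P = 0.0323) and a lower Nrf2 eye in 9 of 9 mice. Neither call held when single mice were left out, with these exceptions: Rdh5 held without mouse 4, 6 or 8 and Rdh10 without mouse 6 or 8. The adjusted P of Rdh5 rose to between 0.0972 and 0.105 without mouse 1, 2, 3, 5, 7 or 9. That of Rdh10 rose to between 0.0638 and 0.0967 without mouse 1, 2, 3, 4, 5, 7 or 9, and to 0.205 without the mouse as block. Rdh11 changed by -0.63 ± 0.17 (adjusted P = 0.0705) and passed the test without mouse 8 (-0.73, adjusted P = 0.0320).

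Stra6 and Dhrs3 did not pass the test. Stra6, the retinol receptor, varied most among control eyes at P40, from 133 through 629 to 1956 CPM, and ran from 183 through 507 to 765 CPM in Nrf2 eyes. Its log2 change was -0.44 ± 0.27 (adjusted P = 0.583), and 4 of 9 mice had the higher level in the Nrf2 eye. Dhrs3 lay between 85.2 and 131 CPM in control eyes and between 56.6 and 130 CPM in Nrf2 eyes, a change of -0.40 ± 0.15 (adjusted P = 0.260). At P40 all 9 members were lower in the Nrf2 eye of 5 mice, 8 were in 3 mice, and 5 were in mouse 8. The control eye of mouse 8 was the lowest control eye for 8 of the 9 members.

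**Figure D3:**
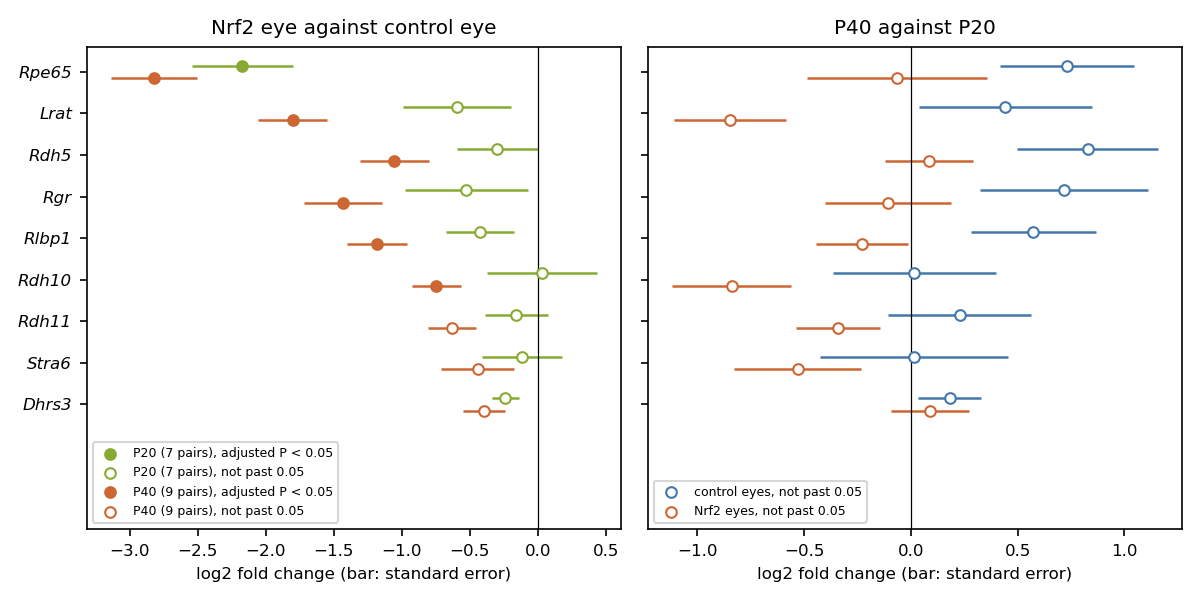
Log2 fold change of each member with its standard error, for Nrf2 against control eyes at P20 and P40 (left) and for P40 against P20 in control and Nrf2 eyes (right); filled points have an adjusted P under 0.05. Rpe65 is filled at both ages and lies farthest left, 5 further members are filled at P40 only, and no point in the right panel is filled.

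The fall of the visual cycle genes was set beside that of other RPE genes. Of the 16 RPE markers outside the visual cycle, 0 were called at P20 by edgeR (3 at an unadjusted P under 0.05), with a median log2 change of 0.05. At P40, 2 were called lower and 0 higher, with a median of -0.34. The 2 were Slc6a20a (-1.17, adjusted P = 0.00558) and Ermn (-0.98, adjusted P = 0.0201), which were named after their values were seen. Slc16a8 at P40 changed by -0.61 ± 0.19 (adjusted P = 0.111). Scaled to these markers in place of all genes, which shifted the median of all genes from -0.03 to 0.27, Rpe65, Lrat, Rgr and Rlbp1 were still called lower at P40. Rdh5 (-0.76, adjusted P = 0.0876) and Rdh10 (-0.45, adjusted P = 0.183) were not.

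Markers of other cells also moved. The 9 Müller glia markers summed to 1262 to 3202 CPM in control eyes and 2087 to 3475 CPM in Nrf2 eyes at P40. Single markers did not move alike: 6 were lower and 3 higher, with log2 changes from -2.87 to 0.43. By edgeR, 0 of the 9 were called (1 at an unadjusted P under 0.05). The 8 cone markers summed to a median of 788 CPM (271 to 2106) in control eyes and 48.7 CPM (28.8 to 307) in Nrf2 eyes at P40, and all 8 were called lower. At P20 the cone sums ran from 39.1 (mouse 3) to 931 CPM in control eyes and from 17.9 to 94.9 CPM in Nrf2 eyes, with 2 of 8 called lower. The 9 rod markers summed to a median of 227 CPM (78.9 to 659) in control and 19.4 CPM (7.63 to 154) in Nrf2 eyes at P40, with 3 of the 8 tested called lower. The 9 macrophage markers summed to 179 CPM (79.4 to 457) in control and 322 CPM (123 to 464) in Nrf2 eyes at P40, with 6 called higher. At P20, 9 of 9 rod markers were lower and 8 of 9 macrophage markers higher, and 0 of either list were called by edgeR (5 and 1 at an unadjusted P under 0.05). All 6 fibroblast markers were higher in Nrf2 eyes at P40 and 5 of 6 at P20, and 1 was called, the collagen gene Col3a1 at P40 (1.13, adjusted P = 0.0459), named after its value was seen. Of 7 endothelium markers, 0 were called at either age by edgeR (1 at an unadjusted P under 0.05 at P20 and 0 at P40). No library was without counts for the defining genes Arr3 and Cd68. The part of these cells' RNA in the levels of the 9 members was not tested.

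Of 25 other genes of retinoid handling, 23 could be tested at each age, and those that passed were mostly photoreceptor genes. At P20, 2 were called lower and 1 higher, and at P40, 3 were called lower and 1 higher. Rbp4, the carrier of retinol in blood, went up. It had 2.23 ± 1.28 CPM in control eyes and 13.7 ± 7.30 CPM in Nrf2 eyes at P20 (log2 change 2.53, adjusted P = 0.0145, higher in 7 of 7 mice), and 2.68 ± 1.25 and 13.3 ± 3.50 CPM at P40 (2.37, adjusted P = 0.00142, 9 of 9). The genes called lower were Opn1sw, the short-wave cone opsin (-5.12, adjusted P = 0.0461 at P20; -5.97, adjusted P = 0.00220 at P40), Rbp3, the retinoid carrier that photoreceptors secrete (-3.19, adjusted P = 0.0275 at P20; -3.19, adjusted P = 0.0105 at P40), and at P40 also the cone opsin Opn1mw (-4.71, adjusted P = 0.00226). Both cone opsins are themselves among the cone markers summed above. The median log2 change of the 23 genes was 0.02 at P20 and -0.27 at P40.

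Whether the effect of Nrf2 on the members differed between the ages was tested over all 32 eyes. The difference, P40 minus P20, was negative for all 9 members, from -1.20 for Lrat to -0.15 for Dhrs3 on the log2 scale, and 0 of the 9 passed the test (edgeR, adjusted P = 0.9995 for each). Lrat (-1.20 ± 0.47, unadjusted P = 0.0192) and Rlbp1 (-0.75 ± 0.33, unadjusted P = 0.0337) were the 2 members with an unadjusted P under 0.05. Of 17959 genes tested, 0.00557% were called, so the larger number of members called at P40 was not shown to be a difference between the ages. For Rpe65 the difference was -0.64 ± 0.47, and it was -0.26 without P20 mice 3 and 4.

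Between P20 and P40 no member passed the test in either kind of eye. In control eyes all 9 changes were positive, with Rdh5 at 0.83 ± 0.33 (SE, n = 7 and 9, adjusted P = 0.0863), Rpe65 at 0.73 ± 0.31 (adjusted P = 0.108), Rgr at 0.72 ± 0.39 (adjusted P = 0.202) and Rlbp1 at 0.57 ± 0.29 (adjusted P = 0.172). The remaining members lay between 0.01 for Stra6 and 0.44 for Lrat, and the signs of Stra6 and Rdh10 turned under other settings. Rdh5 passed without the control eye of P40 mouse 8 (0.94, adjusted P = 0.0393). By edgeR 14.8% of the 16832 genes were called between the ages in control eyes, and 2 of the 9 members had an unadjusted P under 0.05. Without P20 mice 3 and 4, edgeR called 158 of 17254 genes. Over all control eyes, DESeq2 called 4383 of the 16832 genes in either direction. Among these were 2 members, both higher at P40: Rdh5 (0.86, adjusted P = 0.0315) and Rpe65 (0.76, adjusted P = 0.0490).

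In Nrf2 eyes the fitted changes with age ran from -0.85 to 0.09, and 7 of the 9 were negative. Lrat changed by -0.85 ± 0.26 (adjusted P = 0.110) and Rdh10 by -0.84 ± 0.28 (adjusted P = 0.112). These 2 were called lower at P40 by DESeq2 and by limma voom, which called 1832 and 2213 of the 16745 genes in either direction. Rpe65 stood at 343 ± 299 CPM (SD, n = 7) at P20 and 317 ± 194 CPM (n = 9) at P40, a log2 change of -0.07 ± 0.42 (SE, adjusted P = 0.937) that became 0.60 without P20 mice 3 and 4. By edgeR, 0.502% of 16745 genes were called, and 2 members had an unadjusted P under 0.05. Without P20 mice 3 and 4, edgeR called 20 of 17293 genes. No member separated the ages without overlap in control or in Nrf2 eyes, as 1.84% and 0.813% of genes did. Among the other retinoid genes, Ttr, the plasma partner of Rbp4 (2.20, adjusted P = 0.0259), and Dhrs7 (0.54, adjusted P = 0.0389) rose with age in control eyes. None of the 22 tested was called in Nrf2 eyes by edgeR (7 at an unadjusted P under 0.05). Samples were run on 2 sequencing runs that the labels do not assign, so run cannot be told apart from age or from Nrf2. The sample titles begin with M at P20 and with A at P40. What the letter stands for is not given, and it cannot be told apart from age.

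No relation of the members to the level of the transgene was detected among the Nrf2 eyes. Over 9 members at 2 ages, 0 of the 18 relations passed an exact two-sided permutation test after adjustment. For Rpe65 at P20, Pearson's r with the transgene was -0.72 (n = 7, exact permutation P = 0.110, adjusted P = 0.887) and Spearman's rank coefficient was -0.11 (exact permutation P = 0.840, adjusted P = 1). It rested on mouse 4: r was 0.30 without mouse 4 and -0.04 without mice 1 and 4, the pair farthest from the median transgene level. At P40, Rpe65 had r = 0.15 (n = 9, exact permutation P = 0.705, adjusted P = 0.887) and a rank coefficient of 0 (exact permutation P = 1), and r = 0.04 without mice 1 and 8. For the other members r ran from -0.45 to 0.16 at P20, and at P40 from -0.30 to 0.54. The sign depended on the quantity compared. Between the eye-to-eye differences of member and transgene, r was negative for all 9 members at both ages, and 8 of the 9 turned sign at P40, among them Rdh11 (0.54 to -0.63) and Rdh10 (0.46 to -0.49). For Rpe65 the r of these differences was -0.49 at P20 and -0.26 at P40. It was -0.94 and -0.77 without the 2 mice farthest from the median. None of the 18 relations between differences passed either (exact permutation test, lowest adjusted P = 0.729). The transgene difference within a pair ran from 2.77 to 13.2 log2 units at P20 and from 5.01 to 16.7 at P40. It varied largely with the transgene level of the control eye, so these r do not measure dose among the Nrf2 eyes alone. The mice left out at P40 had the 2 highest control values (49.0 and 99.2 CPM), and those at P20 the 2 lowest (0.924 and 1.16 CPM).

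**Figure D4:**
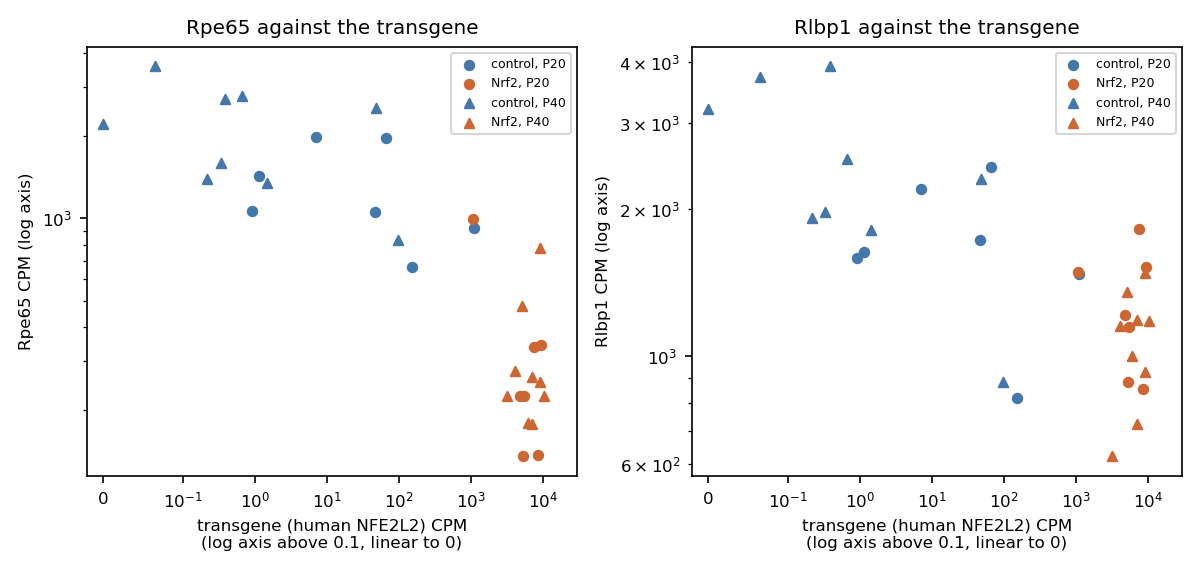
CPM of Rpe65 (left) and Rlbp1 (right) against CPM of the NFE2L2 transgene in each of the 32 eyes, on log axes (the transgene axis is linear below 0.1), with circles for P20, triangles for P40, blue for control and orange for Nrf2 eyes. The orange points form a separate cluster at the right, except that the P20 Nrf2 eye of mouse 4 lies beside the P20 control eye of mouse 3 (1082 and 1098 CPM of transgene).

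Across eyes, the members varied together within groups, Dhrs3 apart. After the 4 group means were removed, Pearson's r of log2 CPM over the 32 eyes had a median of 0.76 over the 36 pairs of members, and 25 pairs were above 0.5. These eyes share mice in pairs, and the correlations are descriptions without a test. The closest pair was Rgr and Rlbp1 (r = 0.96), followed by Rlbp1 and Lrat and by Rdh10 and Rdh11 (0.94 each). Rpe65 was closest to Rlbp1 (0.78) and far from Stra6 (0.26). Dhrs3 ranged from -0.27 with Stra6 to 0.38 with Rpe65, and the 3 pairs below 0 all held it.

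By the same measure, over 15927 genes in the 32 eyes, those closest to Rpe65 were Slc6a13, a GABA and taurine transporter (r = 0.86), Sult1c1, a sulfotransferase (0.86), Endou (0.78), Acot1, an acyl-CoA thioesterase (0.78), and 1600014C23Rik (0.77). Those closest to the mean log2 CPM of the 9 members were Slc7a10, a neutral amino acid transporter (0.96), Pltp, the phospholipid transfer protein (0.95), Fap (0.95) and the RPE marker Slc16a8 (0.95).

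**Figure D5:**
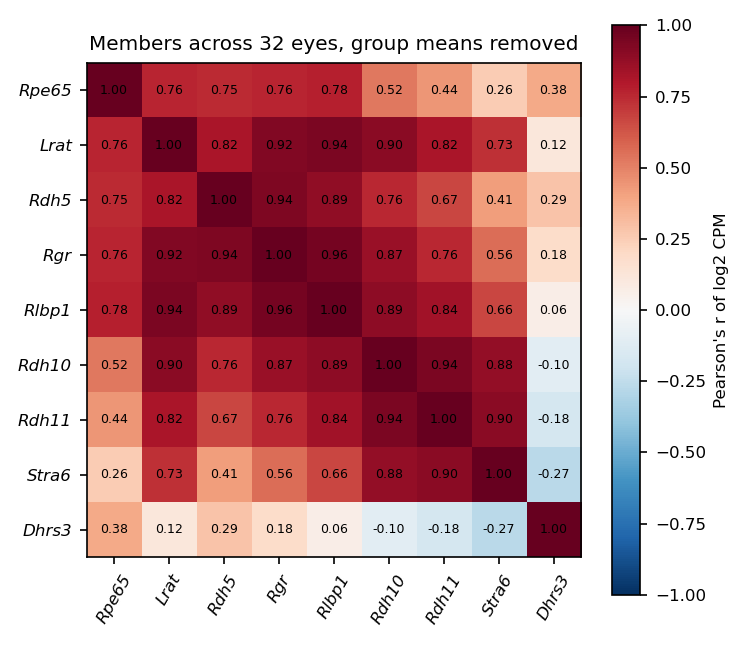
Pearson's r of log2 CPM between each pair of members over the 32 eyes after the group means were removed, from blue at -1 to red at 1. Lrat, Rdh5, Rgr, Rlbp1 and Rdh10 form a red block, Rpe65 is paler toward Rdh11 and Stra6, and Dhrs3 is pale throughout, from light red with Rpe65 (0.38) to light blue with Stra6 (-0.27).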

How the data were processed

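RPE RNA was collected from eyecups after the retina was removed, amplified, and sequenced. Per the labels, the authors used Salmon 0.9.1. Their methods state that gene counts estimated by Salmon were used for testing and name mm10 with Ensembl 91 for a parallel STAR alignment, with no reference named for Salmon, and the deposited estimated counts are unnormalized whole-number expected counts for 34453 genes in 32 libraries. The table itself does not name its counter. The members and gene lists were chosen with earlier results of these data known.

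Counts were rounded, and CPM were computed with TMM library sizes. Each member was tested in a fit over all genes kept by filterByExpr, with the edgeR quasi-likelihood test (edgeR 4.0.16, limma 3.58.1, R 4.3.3) and Benjamini-Hochberg adjusted P under 0.05. Nrf2 and control eyes were compared with the mouse as block, ages without a block, and the difference of the Nrf2 effect over all 32 eyes. Eyes with the same age and replicate number in the sample titles were taken as those of 1 mouse, since the methods describe paired eyes. The 2 eyes' deviations from their group means correlated with r = 0.021 (P20) and 0.099 (P40) on average. Single pairs ran from -0.27 to 0.27 at P20 and from -0.35 to 0.62 at P40. Over 0.1 were 3 of 7 pairs at P20 and 3 of 9 at P40, so the values themselves do not establish the pairing. Log2 CPM used a prior count of 2. Relations to the transgene were tested by exact permutation. Genes were named by rule: the members, the transgene, other retinoid genes past the threshold, and the 5 genes most correlated with Rpe65 or with the members' mean. Some genes that meet this rule are not reported here. Gene lengths are from GENCODE vM21 and promoters from RefSeq.

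Alternatives were DESeq2 1.42.0, limma voom with quality weights, other filters and scalings, a spline correction for length and GC, other samples and other blocks. On simulated counts with 200 genes changed 4-fold, the test recovered 72.5% at P20, 81.5% at P40, 72.0% between ages in control eyes, 64.5% in Nrf2 eyes and 53.0% of differences of effect. Intervals and floors (3 counts) cover counting error only.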

Additional observations from a re-analysis of the deposited data

Results flagged for a closer look

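Among 40 sets of eyes (the 9 members and the transgene in each of the 4 groups), 9 held an eye whose distance to its nearest neighbour took an unusually large part of the group's range on the log2 CPM scale, or 22.5%, where chance gives about 1 in 20. In control eyes at P20, mouse 5 was the lowest and stood apart for Lrat (gap 0.680 of the range), Rdh10 (0.707), Rdh5 (0.631), Rgr (0.652) and Stra6 (0.584). In control eyes at P40, mouse 8 was the lowest and stood apart for Rdh11 (0.526) and Rgr (0.517). The Nrf2 eye of the same P40 mouse was the lowest for Rdh11 (0.537). For the transgene, the Nrf2 eye of P20 mouse 4 was the lowest (0.687). The members share libraries, so these sets are not independent.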

How the results depend on the processing

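At P20, 1 member was called in each alternative but those leaving out 1 mouse (0 to 1), and the log2 change of Rpe65 kept its sign in all 18. At P40, Rpe65, Lrat, Rgr and Rlbp1 were called in 19 of 19 alternatives, Rdh5 in 12 and Rdh10 in 8, and the number of members called ran from 4 (scaled to RPE markers) to 8 (limma voom), and from 4 to 7 without 1 mouse. Rdh10 was also lost without a filter (adjusted P = 0.0521) and in 1 fit over 32 eyes (0.169). Without the mouse as block, no other member's call changed. Rdh11 was called by DESeq2 (adjusted P = 0.0158) and voom (0.0169), and Dhrs3 by voom (0.0422). Between ages, DESeq2 called 2 members in control eyes and 2 in Nrf2 eyes, voom called 2 in Nrf2 eyes, and leaving out 1 eye gave 0 to 1 in control and 0 to 0 in Nrf2 eyes. The age comparison with the mouse number as replicate block, a number that does not pair mice of different ages, called 0 members in either kind of eye. The place of Rpe65 among the levels moved from 4 to 3 with total exon length, which gave Rdh5 1197 CPM per kb.

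Log2 changes near 0 turned sign, and the cause was not tested. At P20 these were Rdh5 (0.06), Rdh11 (0.091) and Stra6 (0.23) with voom, Rdh10 (-0.045) scaled to RPE markers, Stra6 (0.028) corrected for length and GC content, Rdh10 without the replicate block (-0.00523) and Rdh10 without mice 3 and 4 (-0.035). Leaving out 1 mouse moved Rdh10 from -0.26 to 0.29, Rdh11 from -0.33 to 0.0072 and Stra6 from -0.35 to 0.039. Between ages in control eyes, Rdh10 and Stra6 turned with voom (-0.018 and -0.12), with no filter (-0.039 and -0.029) and scaled to RPE markers (-0.054 and -0.11), and Stra6 with the replicate block (-0.24), with ranges of -0.17 to 0.15 and -0.32 to 0.15 without 1 eye. In Nrf2 eyes, voom gave Rdh5 -0.13 and Dhrs3 -0.18, RPE scaling gave Rpe65 0.30, Rgr 0.32, Rlbp1 0.17 and Rdh11 0.045 while it moved the median of all genes from 0.02 to 0.39, the length and GC correction gave Rdh5 -0.19 and Rgr 0.089, the replicate block gave Rpe65 0.18 and Dhrs3 -0.058, and leaving out P20 mice 3 and 4 gave Rpe65 0.60 and Rgr 0.062. Without 1 eye the ranges were -0.36 to 0.44 for Rpe65, -0.016 to 0.18 for Rdh5, -0.23 to 0.013 for Rgr and -0.031 to 0.13 for Dhrs3. For the difference between ages, RPE scaling gave Stra6 0.026 and Dhrs3 0.21. For Rpe65 and the transgene, r was -0.26 at P40 for eye-to-eye differences and 0.30 at P20 without mouse 4.

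Counts of all genes called moved more. At P20 (556), DESeq2 gave 1951, voom 2605, no filter 348, RPE scaling 287 and no replicate block 1093, and leaving out 1 mouse 111 to 1999. At P40 (762), DESeq2 gave 1380 and voom 1327. Between ages in control eyes (2483), DESeq2 gave 4383, voom 3747, no filter 914, RPE scaling 325, the length and GC correction 1334, the replicate block 59, dropping P20 mice 3 and 4 158, and leaving out 1 eye 473 to 4273. In Nrf2 eyes (84), DESeq2 gave 1832, voom 2213, no filter 31, RPE scaling 3087, the replicate block 3, dropping P20 mice 3 and 4 20, and leaving out 1 eye 21 to 190. For the difference between ages (1), DESeq2 gave 12.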
